A study of Mus musculus with 8 samples.

Results

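The IFIT genes encode interferon-induced proteins built from tetratricopeptide repeats. The members were taken by symbol from the deposited count table, namely Ifit1, Ifit2, Ifit3, Ifit3b, Ifit1bl1 and Ifit1bl2, and are 6 of its 42454 genes, of which 18955 had at least 1 count in some library. All 6 were found. IFIT proteins bind RNA through their repeats and act against viruses inside the cell. IFIT1 holds mRNAs whose cap lacks ribose methylation and keeps them from being translated, while IFIT2 and IFIT3 join it in complexes and IFIT2 also binds RNA itself. The genes are nearly silent in resting cells. Type I interferon switches them on through a complex with STAT2 and IRF9 that binds the interferon-stimulated response element (ISRE) before their start sites, and in macrophages lipopolysaccharide does so through IRF3 and through the interferon-β that the cell then secretes.

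RNA was sequenced from RAW264.7, a mouse macrophage-like line from a virus-induced tumour, in 8 libraries, 2 for each of 4 labelled groups. The group mock received DMSO, the group TubB received Tubuloside B, a phenylethanoid glycoside of unstated dose, the group LPS_IFNg received 10 ng/ml lipopolysaccharide (LPS) with 20 ng/ml interferon-gamma (IFN-γ) for 24 h, and LPS_IFNg_TubB received the stimulus together with the compound. All groups share 1 cell line with no added transgene named. The labels do not tell whether replicates were separate cultures. The p-values therefore reflect only the variation among these libraries, which may be technical.

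Library totals lay between 4767894 and 8413834 counts. The stimulus markers went against the labels, and each group name below therefore stands for libraries so labelled. Nos2 (inducible nitric oxide synthase) lay at 155 to 176 CPM (counts scaled to a fixed library size) in the libraries labelled mock and 166 to 199 in those labelled LPS_IFNg, but at 5762 to 6964 in TubB and 6156 to 7429 in LPS_IFNg_TubB. Il6 had 1 count over both mock libraries, 0 over LPS_IFNg, 613 over TubB and 568 over LPS_IFNg_TubB. The comparison of LPS_IFNg_TubB with mock, which uses neither TubB nor LPS_IFNg, was added for this reason after the data were seen. Which labels are wrong, if any, cannot be told from these data. All 8 macrophage markers had counts in every group, with a summed level of 6630 to 7214 CPM over the 8 libraries. The sum hides changes of single markers. In TubB against mock edgeR called 5 of 8 higher and 1 lower, where 26.3% and 24.9% of all tested genes were. Csf1r changed by -1.20 and Adgre1 by 2.71 on the log2 scale. Markers of T cells, B cells, fibroblasts and epithelium summed to at most 2.93 CPM in any library, and of the neutrophil markers Ly6g, S100a9 and Mpo had 0 counts, while S100a8 lay at 4.59 to 5.58 CPM in mock and LPS_IFNg and 31.4 to 51.8 in TubB and LPS_IFNg_TubB.

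The 6 genes form a cluster on mouse chromosome 19 (GRCm38.p6, bases 34550550 to 34662981) that spans 112.4 kb in the annotation used for counting. Ifit2 (34550550 to 34576534), Ifit3 (34583119 to 34588982), Ifit3b (34607530 to 34613403) and Ifit1 (34640889 to 34650009) lie on the plus strand. Ifit1bl1 (34592888 to 34662981) and Ifit1bl2 (34617046 to 34640827), close relatives of Ifit1, lie on the minus strand. The span of Ifit1bl1 covers those of Ifit3b, Ifit1bl2 and Ifit1 within its introns. No exon of a member overlapped an exon of another, so in unstranded counting reads of neighbouring members do not fall on shared exon bases.

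Matches to the core of the ISRE near the starts of these genes are shown first, so that they can be read beside the levels. Binding at them was not measured. RefSeq promoter windows of this build, from 250 bases before to 50 bases after each start, were found for 6 of 6 members, 9 windows in all because Ifit2, Ifit1bl1 and Ifit1bl2 have a pair each. The ISRE core was searched as GAAANNGAAA on both strands and occurred in 6 of these 9 windows, belonging to 5 of 6 members, while 3.44% of 32851 mouse promoter windows held it. Ifit1, Ifit3, Ifit3b and 1 window of Ifit1bl2 held it 2 times, as did 0.225% of all windows. Each sequence below runs 5′ to 3′ on the strand of its gene, with the ISRE core in capitals. For members whose window lies partly in annotated exons, only 30 bases around the cores are given. Ifit1 (chr19:34640785-34640814, plus strand, cores starting 104 and 85 bases before the start) and Ifit1bl2 (chr19:34640784-34640813, minus strand, 70 and 51 bases before its start) show the same pair of sites read from opposite strands:
Ifit1: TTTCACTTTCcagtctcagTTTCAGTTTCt
Ifit1bl2: GAAACTGAAActgagactgGAAAGTGAAAc
The 2 starts are 146 bases apart and the windows share 245 genome bases. The 9 windows held 8 core sites, of which these 2 are the only ones in the windows of more than 1 member. The rest of the cluster was not searched.
Ifit3 and Ifit3b carried identical 30-base stretches around both of their cores (Ifit3 at chr19:34583363-34583392 and chr19:34583397-34583426, Ifit3b at chr19:34607759-34607788 and chr19:34607793-34607822, plus strand):
Ifit3, core 156 bases before the start: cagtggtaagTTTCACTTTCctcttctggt
Ifit3, core 122 bases before the start: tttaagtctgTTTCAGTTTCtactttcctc
The longer stretch of Ifit3b that no exon of a member overlaps (chr19:34607764-34607956, plus strand) shows the spacing of the pair and the bases up to the start:
Ifit3b: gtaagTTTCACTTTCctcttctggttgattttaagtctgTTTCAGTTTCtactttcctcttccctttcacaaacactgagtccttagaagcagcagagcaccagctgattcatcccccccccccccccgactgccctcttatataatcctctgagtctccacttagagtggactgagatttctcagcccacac
Aligned over 260 bases, the windows of Ifit3 and Ifit3b were identical at 258, or 99.2%. Gaps and the unaligned bases of these 300-base windows are left out of this figure. Ifit1bl1 had 1 core in each of its windows, shown for the start nearer to its last exon (chr19:34599431-34599460, minus strand):
Ifit1bl1: actctgtaggTTTCATTTTCtgtaagttgg
Neither window of Ifit2 held the core. Both belong to starts (34550694 and 34551088) near the upstream end of its span (34550550 to 34576534). Bases further inside the gene were not searched, so whether a core occurs there was not tested. The bases of the first window ahead of the most upstream annotated exon (chr19:34550444-34550549, plus strand) are printed:
Ifit2: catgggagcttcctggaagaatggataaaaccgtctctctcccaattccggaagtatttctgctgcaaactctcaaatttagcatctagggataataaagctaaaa
A gamma-activated sequence, searched as TTCNNNGAA on both strands, which overlaps no ISRE core here, occurred in this window of Ifit2 at 241 bases before the start and in none of the other members' windows, against 8.3% of all windows. Such matches describe letters in these windows only.

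Ifit2 and Ifit1 had low levels in the libraries labelled mock and LPS_IFNg, and the 4 members with the most counts were higher in every library labelled TubB or LPS_IFNg_TubB than in any of the others. For scale, edgeR called 26.3% of 11081 tested genes higher in TubB than in mock and 26.2% higher in LPS_IFNg_TubB than in LPS_IFNg. The share of all tested genes that were likewise higher in every such library was not counted. The separation is thus not read as a trait of the members. Ifit2, whose protein binds RNA and is linked to cell death, had 8.65 and 7.36 CPM in mock replicates 1 and 2, 10.7 and 7.65 in LPS_IFNg, 234 and 123 in TubB, and 237 and 145 in LPS_IFNg_TubB. Ifit1, the sensor of unmethylated caps, had 4.05 and 2.31 CPM in mock, 1.32 and 2.55 in LPS_IFNg, 49.4 and 26.3 in TubB, and 43.9 and 30.2 in LPS_IFNg_TubB. Both genes overlapped between mock and LPS_IFNg and between TubB and LPS_IFNg_TubB, with a wide gap between these pairs. Ifit3, which steadies IFIT1 on RNA, had 0.698 and 0.433 CPM in mock, 0.823 and 0.849 in LPS_IFNg, 32.5 and 21.0 in TubB, and 37.9 and 22.1 in LPS_IFNg_TubB. The values in mock and LPS_IFNg rest on 3 to 5 counts a library, so their order says nothing beyond counting error.

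**Figure D1:**
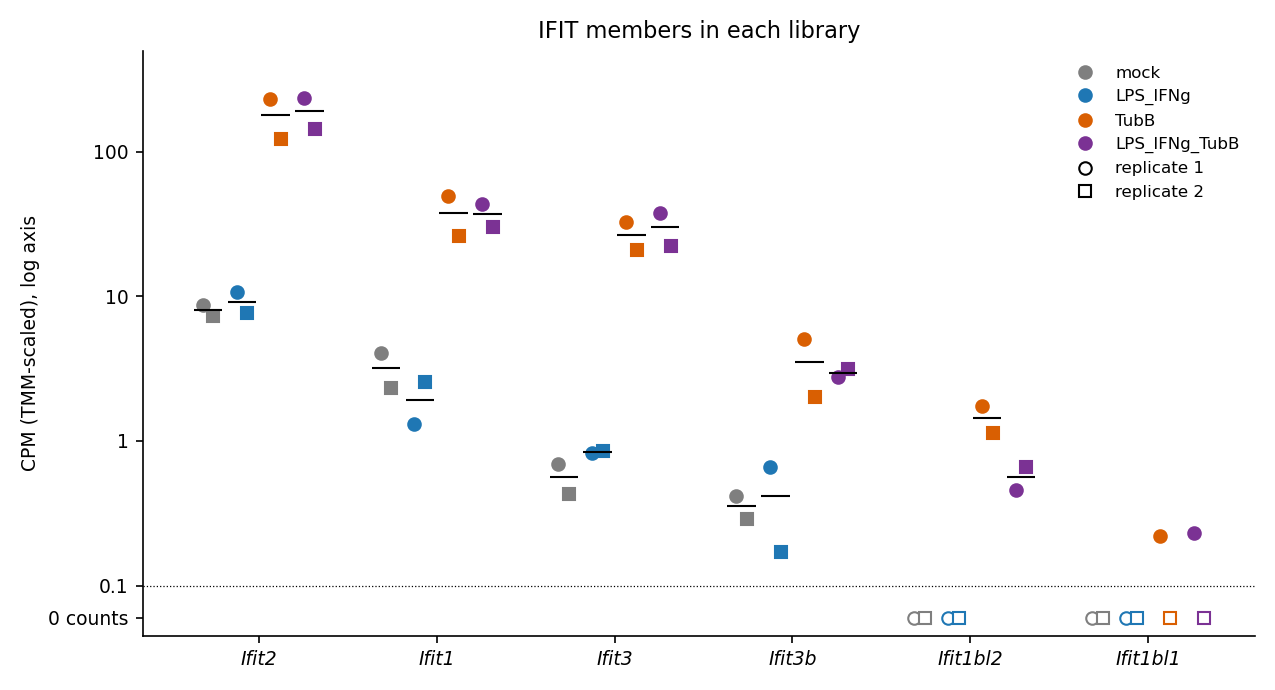
Level of each IFIT member in each library as TMM-scaled CPM on a log axis, with circles for replicate 1, squares for replicate 2, short lines for the mean of groups with counts in both libraries, and open symbols in the lowest band for libraries with 0 counts. Ifit2 in TubB (234 and 123) and LPS_IFNg_TubB (237 and 145) stands far above mock (8.65 and 7.36) and LPS_IFNg (10.7 and 7.65), and Ifit1bl2 has counts only in TubB and LPS_IFNg_TubB.

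Ifit3b, the near copy of Ifit3, had 3 and 2 counts in mock, 4 and 1 in LPS_IFNg, 23 and 16 in TubB, and 12 and 19 in LPS_IFNg_TubB, or 0.419 and 0.289, 0.658 and 0.170, 5.05 and 2.01, and 2.76 and 3.14 CPM. Its lowest library in TubB stood 4.80-fold above its highest in mock. Ifit1bl2 had 0 counts in the libraries labelled mock and LPS_IFNg, 8 and 9 in TubB, and 2 and 4 in LPS_IFNg_TubB. The floor used for a group at 0 was 3 counts over the group. Set against it, the ratio for Ifit1bl2 was 6.39 for TubB over mock and 2.30 for LPS_IFNg_TubB over LPS_IFNg. These ratios leave out the counting error of the higher group and so are no lower bounds. The first ratio was 3.14 without mock replicate 1 and 3.25 without mock replicate 2, where the floor rests on 1 library. The second ratio was 1.13 and 1.17 without LPS_IFNg replicate 1 and 2. Without LPS_IFNg_TubB replicate 2 the 2 counts left were under the floor. Ifit1bl1 had 1 count in TubB replicate 1, 1 in LPS_IFNg_TubB replicate 1 and 0 elsewhere, so no difference was detectable at this depth, where 3 counts correspond to 0.377 to 0.689 CPM. It and Ifit1bl2, with 2 and 23 counts in all, did not pass the filter on low counts.

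Per kilobase of exon, the order was Ifit2, Ifit1, Ifit3 and Ifit3b in 8 of 8 libraries. In TubB the levels were 40.8 ± 17.8 CPM per kb (SD, n = 2) for Ifit2, 14.3 ± 6.21 for Ifit1, 9.92 ± 3.02 for Ifit3, 1.57 ± 0.956 for Ifit3b, 0.418 ± 0.128 for Ifit1bl2 and 0.0345 ± 0.0487 for Ifit1bl1. Ifit1 and Ifit3 overlapped between libraries there and in LPS_IFNg_TubB, and Ifit3 and Ifit3b overlapped in mock, so these neighbours in the order did not differ beyond the spread between libraries, although within each of the 8 libraries the former stood above the latter. Counts of Ifit3 per count of Ifit1 had exact 95% intervals below 1 in 3 of the 4 libraries of TubB and LPS_IFNg_TubB, with LPS_IFNg_TubB replicate 1 the exception (0.864, 0.697 to 1.07). In mock the levels were 1.83 ± 0.210 for Ifit2, 1.21 ± 0.466 for Ifit1, 0.210 ± 0.0696 for Ifit3 and 0.157 ± 0.0409 for Ifit3b. Set among the 11081 tested genes by level per length, Ifit2 stood above 19.5% of them in mock and 84.3% in TubB, Ifit1 above 14.4% and 62.1%, Ifit3 above 3.0% and 52.2%, and Ifit3b above 2.23% and 16.6%. The near copies Ifit3 and Ifit3b, whose promoter windows were almost the same outside gaps, stood far apart at 30.01 ± 11.1 and 2.95 ± 0.272 CPM (SD, n = 2) in LPS_IFNg_TubB.

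**Figure D2:**
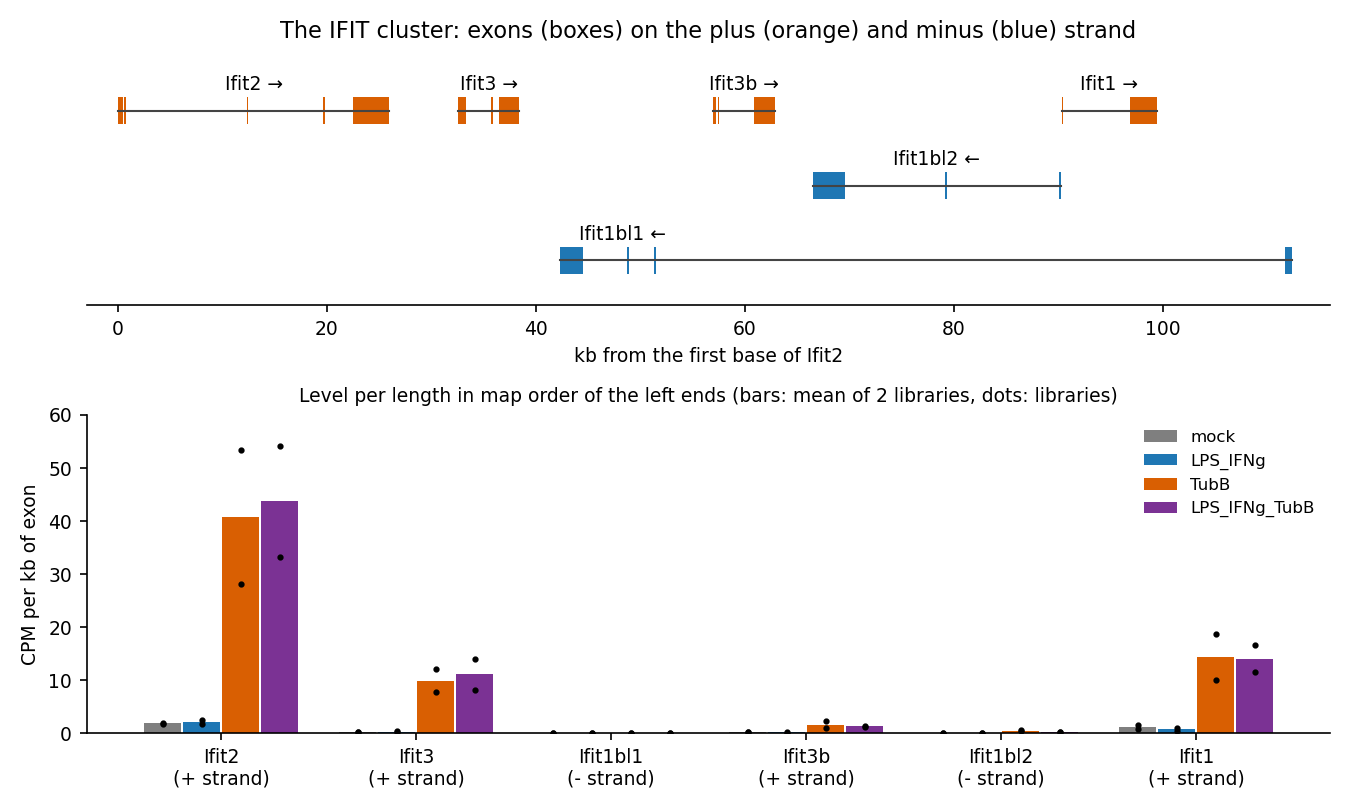
Upper panel: exons of the members (boxes) joined by introns (lines) in kb from the first base of Ifit2, orange for the plus and blue for the minus strand, with rows set apart for legibility. Lower panel: CPM per kb of exon in each group, bars for the mean of 2 libraries and dots for the libraries, where Ifit2 reaches 40.8 in TubB and Ifit1bl1 0.0345.

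Ifit3 and Ifit3b also share transcript sequence. Of the distinct 50-base stretches in the GENCODE M21 transcripts of Ifit3, 51.2% also occurred in Ifit3b, against 18.6% of the 150-base stretches. For Ifit3b these shares were 44.5% and 16.0%. Ifit1 shared 7.13% of its 50-base stretches with another member and Ifit2 shared 0%. Ifit1bl2 shared 9.34% with other members, 5.55% with Ifit1, and Ifit1bl1 shared 6.45%. The counting command names no option for reads that map to several places. Their part in the levels of Ifit3 and Ifit3b was not tested, so how counts divide between these near copies is uncertain. Nor was it tested whether reads from Ifit1 enter the few counts of Ifit1bl2, 17 over TubB and 6 over LPS_IFNg_TubB. In these groups Ifit1 had 434 and 374 counts.

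TubB against mock addresses the compound given alone, as labelled, though Nos2 and Il6 were high in TubB and low in mock, so the compound and the stimulus response cannot be told apart here. By edgeR's quasi-likelihood test with Benjamini-Hochberg adjustment, the 4 members that passed the filter were each called higher, where 26.3% of 11081 genes were (51.2% in either direction). Ifit3 and Ifit3b had at most 5 counts in any mock or LPS_IFNg library and so passed the minimum of 10 counts only through the libraries where they were high, which makes the count of 4 no support in itself. Ifit3 was higher by 5.48 ± 0.42 on the log2 scale (SE, 95% interval 4.62 to 6.34, adjusted p = 1.05e-10, edgeR), Ifit2 by 4.45 ± 0.57 (2.90 to 5.997, adjusted p = 0.0032), Ifit1 by 3.52 ± 0.42 (2.57 to 4.47, adjusted p = 7.06e-05) and Ifit3b by 3.15 ± 0.75 (1.62 to 4.68, adjusted p = 0.000812). Both TubB libraries exceeded both mock libraries for each of them, but how many of all genes did so was not counted. Ifit3b stood at 2.44 without TubB replicate 1 (edgeR adjusted p = 0.0359) and at 3.77 without TubB replicate 2. In bulk RNA, more cells with a message and more of it per cell cannot be told apart.

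LPS_IFNg_TubB against LPS_IFNg is labelled as the compound beside the stimulus and rests on other libraries. By the stimulus markers it set libraries with Nos2 at 6156 to 7429 CPM and 568 counts of Il6 against libraries with Nos2 at 166 to 199 CPM and 0 counts of Il6, so the compound and the stimulus response cannot be told apart in it. The same 4 members were called higher, where 26.2% of 11081 genes were (51.2% in either direction). Ifit3 was higher by 5.11 ± 0.40 on the log2 scale (95% interval 4.28 to 5.94, edgeR adjusted p = 1.98e-10), Ifit2 by 4.36 ± 0.58 (2.81 to 5.92, adjusted p = 0.00353), Ifit1 by 4.24 ± 0.48 (3.15 to 5.32, adjusted p = 4.96e-05) and Ifit3b by 2.77 ± 0.78 (1.18 to 4.36, adjusted p = 0.0038). By this fit Ifit3 had the largest and Ifit3b the smallest fold in both comparisons, with overlapping intervals between neighbouring members. On the deposited rlog values Ifit2 was largest in both (2.63 in each, against 2.13 and 2.12 for Ifit3), and without LPS_IFNg replicate 1 Ifit1 (3.83) lay below Ifit3b. Without LPS_IFNg replicate 2 the call of Ifit3b was lost (2.14, edgeR adjusted p = 0.0645), and without LPS_IFNg replicate 1 it stood at 3.97. Those libraries held 1 and 4 counts of Ifit3b.

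**Figure D3:**
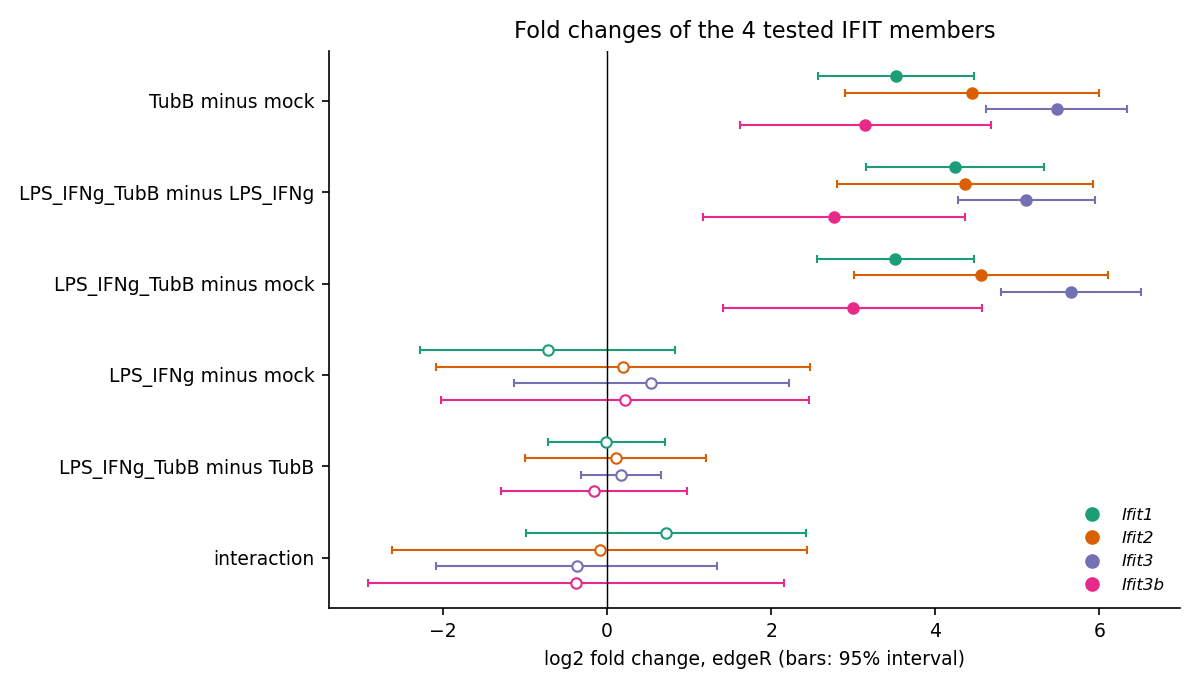
Log2 fold change of the 4 tested members in each comparison by edgeR, with 95% intervals as bars and filled points for an adjusted p under 0.05. The 3 comparisons at the top lie between 2.77 and 5.65, and the intervals of the 3 at the bottom all cover 0.

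Set against mock, LPS_IFNg_TubB gave 5.65 ± 0.41 for Ifit3, 4.56 ± 0.57 for Ifit2, 3.51 ± 0.42 for Ifit1 and 2.99 ± 0.77 for Ifit3b on the log2 scale (edgeR adjusted p = 5.1e-11, 0.00285, 7.43e-05 and 0.00172). These 4 were called higher, where 26.6% of 11081 genes were (25.3% were lower, 51.9% in all), and this comparison shares its control libraries with that of TubB with mock. Nos2 and Il6 were high in LPS_IFNg_TubB and low in mock, in the direction of these labels. By label the groups differ in both the stimulus and the compound, so these cannot be told apart here.

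LPS_IFNg against mock is the comparison labelled as the stimulus alone, but Nos2 overlapped between these groups and Il6 had 0 counts in LPS_IFNg, so it is given as a comparison of libraries so labelled and not as a response to the stimulus. In it, edgeR called 0 of the 4 tested members and 0% of 11081 genes, with 247 at an unadjusted p under 0.05 and 0 called by DESeq2 or limma-voom. The log2 differences were -0.72 for Ifit1 (95% interval -2.27 to 0.83), 0.20 for Ifit2 (-2.08 to 2.48), 0.54 for Ifit3 (-1.13 to 2.21) and 0.22 for Ifit3b (-2.02 to 2.46). These intervals reach past a 4-fold change in at least 1 direction for each of the 4 genes, so a change of that size could not be told from none. Each lies below the fitted fold of the same gene in TubB against mock. For Ifit3b, however, it overlaps the interval of that fold (1.62 to 4.68), so these are not separated for this gene. LPS_IFNg_TubB against TubB gave narrower intervals. There Ifit1 differed by -0.01 (-0.72 to 0.70), Ifit2 by 0.11 (-0.99 to 1.21), Ifit3 by 0.17 (-0.32 to 0.66) and Ifit3b by -0.16 (-1.29 to 0.97), and edgeR called 0% of 11081 genes, with 269 at an unadjusted p under 0.05 and 0 called by DESeq2 or limma-voom. The interaction, which is the fold of LPS_IFNg_TubB over LPS_IFNg set against that of TubB over mock and, given the markers, compares the groups only as labelled, was 0.72 for Ifit1 (-0.99 to 2.42), -0.09 for Ifit2 (-2.61 to 2.44), -0.37 for Ifit3 (-2.08 to 1.35) and -0.38 for Ifit3b (-2.91 to 2.15). It was called in 0% of 11081 genes by edgeR, with 277 at an unadjusted p under 0.05 and 0 called by DESeq2 or limma-voom.

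The make-up of the family differed between low and high libraries less than its level. The members together held 99 and 72 counts in mock, 82 and 66 in LPS_IFNg, 1469 and 1383 in TubB, and 1404 and 1217 in LPS_IFNg_TubB. Ifit2 took 62.6% of these in mock replicate 1 (95% Wilson interval 52.8 to 71.5) and 79.3% in LPS_IFNg replicate 1 (69.3 to 86.6), its lowest and highest shares, and 71.0% to 73.6% in the 4 libraries of TubB and LPS_IFNg_TubB. Its share was thus near-constant where counts were many. Ifit1 took 29.3% and 22.2% in mock, 9.76% and 22.7% in LPS_IFNg, 15.3% and 15.1% in TubB, and 13.6% and 15.04% in LPS_IFNg_TubB. Ifit3 took 5.05% and 4.17% in mock, 6.10% and 7.58% in LPS_IFNg, 10.1% and 12.1% in TubB, and 11.7% and 11.01% in LPS_IFNg_TubB. For Ifit3 the 4 high libraries all lay above the 4 low ones. The low shares rest on 3 to 5 counts, with Wilson upper limits of 11.3% to 16.5% that reach into the high shares. Taken library by library, these intervals therefore do not separate the low shares from the high ones. Over each group Ifit3 had 8 of 171 counts in mock, 10 of 148 in LPS_IFNg, 315 of 2852 in TubB and 299 of 2621 in LPS_IFNg_TubB. The difference between these pooled shares was not tested. Counts of Ifit3 per count of Ifit1 were 0.172 (exact 95% interval 0.0521 to 0.451) and 0.188 (0.0350 to 0.655) in mock, and 0.658 (0.531 to 0.813) and 0.799 (0.648 to 0.984) in TubB. LPS_IFNg replicate 1, with 5 and 8 counts, had a ratio of 0.625 (0.161 to 2.17), and LPS_IFNg replicate 2 had 0.333. The interval of the former covers the ratios of mock and of TubB alike, so it does not place this library with either. Intervals and floors cover counting error only.

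**Figure D4:**
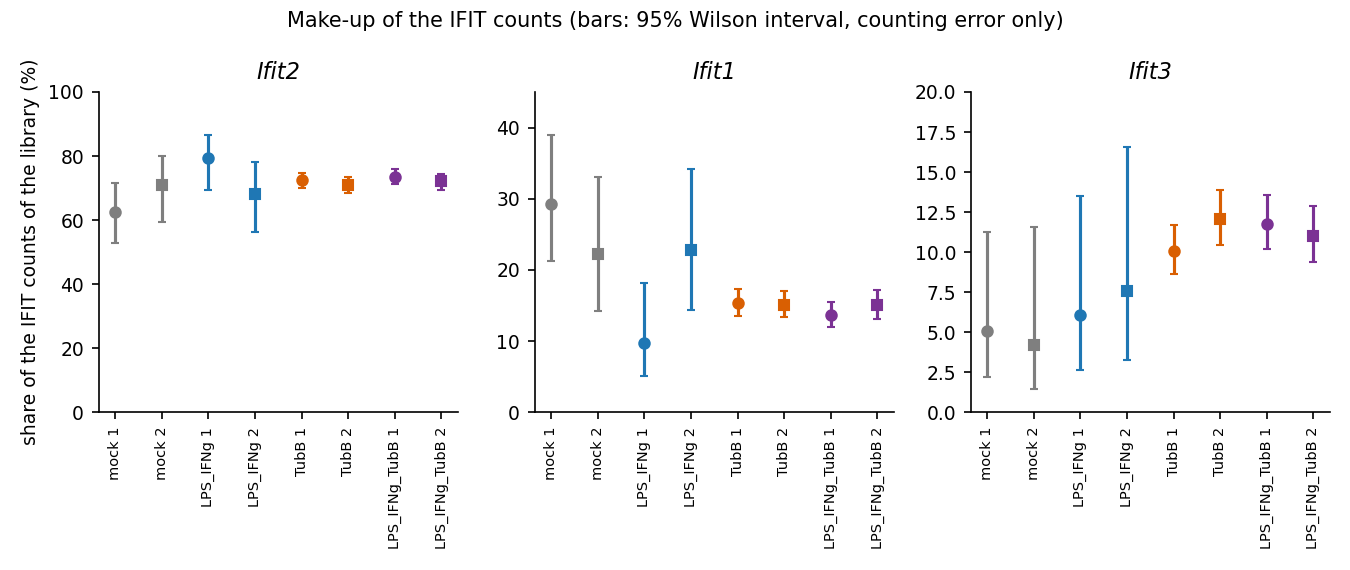
Share of the IFIT counts of each library taken by Ifit2, Ifit1 and Ifit3, in percent on separate vertical scales from 0, with 95% Wilson intervals as bars, circles for replicate 1 and squares for replicate 2. Ifit2 takes 71.0% to 73.6% in TubB and LPS_IFNg_TubB, and the wide bars of mock and LPS_IFNg follow from 66 to 99 counts a library.

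Within TubB, the ratio of replicate 1 to replicate 2 lay above the 95th percentile of all genes for each of the 4 tested members. There, replicate 1 held 1.88 times the CPM of replicate 2 for Ifit1 (exact 95% interval 1.55 to 2.28), 1.89 times for Ifit2 (1.74 to 2.07), 1.55 times for Ifit3 (1.23 to 1.94) and 2.51 times for Ifit3b (1.27 to 5.09). In LPS_IFNg_TubB these ratios were 1.45 (1.18 to 1.79), 1.64 (1.49 to 1.79), 1.71 (1.35 to 2.17) and 0.878 (0.389 to 1.90). Over all tested genes with at least 10 counts in both libraries, the ratio had a median of 1.005 in TubB and 1.002 in LPS_IFNg_TubB, with its 5th and 95th percentiles at 0.699 and 1.40 in the former and 0.706 and 1.39 in the latter. Ifit3b in LPS_IFNg_TubB was the 1 ratio among these 8 below 1. Other antiviral effectors induced by type I interferon had a ratio above 1 for 21 of 21 genes in each group, with medians of 1.48 and 1.37. Among genes induced chiefly by IFN-γ it was above 1 for 9 of 10 in each, with medians of 1.26 and 1.18. Over all tested genes with at least 10 counts in both libraries, it was above 1 for 5258 of 10253 in TubB and 5138 of 10162 in LPS_IFNg_TubB. In TubB and LPS_IFNg_TubB replicate 1 also had the smaller library total, and the part of depth in these ratios was not tested.

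The rest of the interferon pathway was read from lists in TubB against mock, where the median of all tested genes was -0.01 on the log2 scale and 26.3% of them were called higher and 24.9% lower. Of 10 interferon genes, among them Ifnb1 and Ifng, 0 had a count in any library, which allows at most 0.377 to 0.689 CPM for each gene in a library. Among 10 receptors, kinases and STATs, 6 rose and 0 fell by edgeR, with a median of 1.04. Stat2 and Irf9, subunits of the complex that binds the ISRE, rose by 3.76 ± 0.22 and 2.19 ± 0.20. Of 7 tested IRF factors 5 rose and 1 fell, with a median of 1.19, led by Irf1 (6.71 ± 0.11) and Irf7, the factor that amplifies interferon production (4.87 ± 0.50). The 1 that fell was Irf3 (-0.41, edgeR adjusted p = 0.015), whose call was lost with DESeq2 (adjusted p = 0.0639) and on leaving out any of the 4 libraries compared (adjusted p = 0.0552 to 0.0719). Sensors of RNA and LPS and their adaptors rose in 10 of 13 and fell in 2, with a median of 1.39, among them the RNA helicases Ifih1 (4.87 ± 0.51), Dhx58 (4.17 ± 0.29) and Ddx58 (2.28 ± 0.30). The fall of the adaptor Mavs (-0.46, edgeR adjusted p = 0.0113) was lost with DESeq2 (adjusted p = 0.0526) and without mock replicate 2 (0.0906) or TubB replicate 2 (0.124). Feedback inhibitors rose in 5 of 7, with a median of 0.46, among them the signalling inhibitor Socs3 (4.35 ± 0.10) and the deISGylase Usp18 (3.87 ± 0.52). Among the sensors and among the feedback inhibitors, 1 gene each had under 10 counts in every mock and LPS_IFNg library. It passed the filter only through the libraries where it was high, so these counts are no support in themselves. The phosphatase Ptpn1 was at the edge of the threshold (0.24 ± 0.10, edgeR adjusted p = 0.0499) and lost its call with DESeq2 (adjusted p = 0.107).

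All 21 tested of 22 other antiviral effectors rose by edgeR, with a median of 3.15, and so did the 10 tested of 12 IFN-γ genes, with a median of 8.72. Of these, 6 antiviral effectors and 7 IFN-γ genes had under 10 counts in every mock and LPS_IFNg library and so passed the filter only through the libraries where they were high, which makes these counts no support. Over mock, 5 of the 10 IFN-γ genes had at most 3 counts, so their fitted folds are no measure of size. With Cxcl9, at 0 in mock, set at its ratio to the floor of 3 counts, the median was 8.52. Gbp5 moved from 12.68 to 14.80 without mock replicate 1. Isg15 lost its call without mock replicate 1 (edgeR adjusted p = 0.0529) or replicate 2 (0.0532), and Oas2 without mock replicate 2 (0.0583). Ifit1, Ifit2 and Ifit3 lay above the median of the antiviral list, while Ifit3b lay at 3.15. Rsad2, which makes a chain-terminating nucleotide, rose by 7.35 ± 0.89, or 6.64 without TubB replicate 1, with its call lost under limma-voom (adjusted p = 0.0662). Parp14 rose by 6.50 ± 0.38. Under limma-voom 17 of the antiviral list were called. In LPS_IFNg_TubB against LPS_IFNg, where 26.2% of genes were called higher and 25.0% lower, 7 receptors, kinases and STATs, 5 IRF factors, 10 sensors, 5 feedback inhibitors, 21 antiviral effectors and 10 IFN-γ genes rose. The same limit from genes with under 10 counts holds for the last 4 of these lists.

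**Figure D5:**
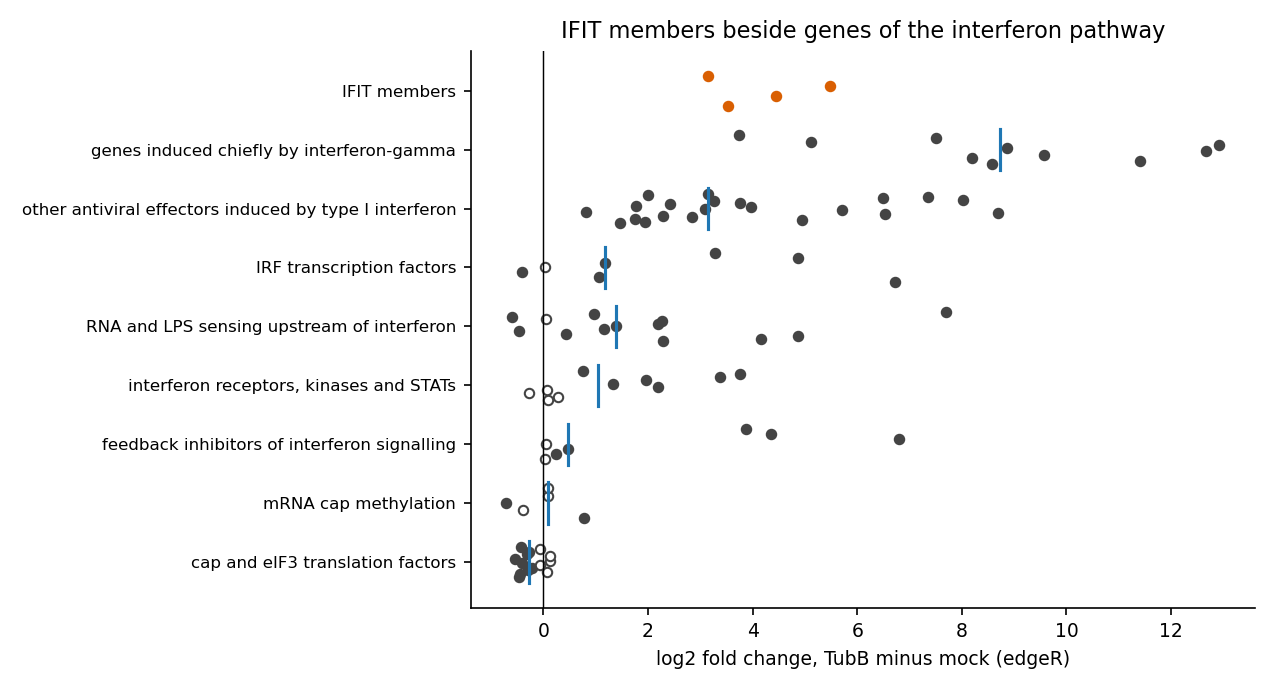
Log2 fold change of TubB against mock by edgeR for the 4 tested IFIT members (orange) and the tested genes of each list (grey), filled where the adjusted p is under 0.05, with a blue line at the median of each list. The IFIT members lie at 3.15 to 5.48 beside the antiviral list with its median of 3.15, and the points of the IFN-γ list rest in part on genes with at most 3 counts over mock.

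The lists of the machinery that IFIT proteins act on had medians nearer to 0 than that of the antiviral effectors. Enzymes that methylate the mRNA cap, which sets the messages that IFIT1 spares, had a median of 0.09 over 5 genes, with Pcif1, which methylates the adenosine next to the cap, lower by 0.71 ± 0.16 on the log2 scale (change -0.71, edgeR adjusted p = 0.000509). Cmtr1, which adds the ribose methyl group and is named although its low level puts it outside the rule for named genes, was higher by 0.78 (edgeR adjusted p = 0.0326). DESeq2 did not call it (adjusted p = 0.099), nor did edgeR when mock replicate 1 (adjusted p = 0.16), mock replicate 2 (0.0779) or TubB replicate 2 (0.259) was left out. Of 14 tested cap-binding and eIF3 factors 9 fell and 0 rose, with a median of -0.28. Over all 11081 tested genes 24.9% were called lower and 26.3% higher. With DESeq2 the calls of Eif3e (adjusted p = 0.0868) and Eif3m (0.074), named after their values were seen, were lost. Eif3j1 changed by -0.54 ± 0.11, Eif3a by -0.46 ± 0.08, Eif3b by -0.44 ± 0.07 and Eif4g1 by -0.42 ± 0.07. In this comparison and in LPS_IFNg_TubB against LPS_IFNg, where 1 rose and 8 fell, these changes were small beside those of the IFIT members. Over all genes 26.2% were called higher and 25.0% lower in the latter. There the 1 that rose lost its call with DESeq2 (adjusted p = 0.0782), as did the fall of Eif3m (0.0924).

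Genes with profiles most like each member were ranked by the root mean square difference of centred log2 CPM over the 8 libraries, among the 8802 genes whose mean reached 3 log2 CPM. Nearest to Ifit3 were the chemokine-binding receptor Ccrl2 (0.116), Irf7 (0.135), the chemokine Ccl5 (0.220), Ifih1 (0.281) and Rtp4 (0.299). Nearest to Ifit2 were Irf7 (0.244), Dhx58 (0.245), Socs3 (0.266), Ccl5 (0.283) and the class I molecule H2-T23 (0.301), and Ifit2 and Ifit3 differed from each other by 0.284. Irf7 and Ccl5 thus stood among the nearest 5 of both. Ifit1 was nearest to the Fc receptor Fcgr4 (0.317), Trim12c (0.348), Tmem132a (0.349), the oligoadenylate synthetase Oas3 (0.369) and Maff (0.373), and lay 0.538 from Ifit2 and 0.674 from Ifit3. Ifit3b was nearest to the kinase Pim2 (0.298), Bcl2a1d (0.299), Irf9 (0.302), Tmem106a (0.302) and Smox (0.317), and lay 1.30 from Ifit3, its near copy. The median over all ranked genes was 1.94 for Ifit1, 2.20 for Ifit2, 2.42 for Ifit3 and 1.24 for Ifit3b. A prior count of 2 in the log2 CPM draws the profiles of Ifit3 and Ifit3b, which had at most 5 counts in each mock and LPS_IFNg library, towards flatness. The 5 genes nearest to Ifit3 had folds of 4.72 to 5.004 in TubB against mock on the log2 scale by edgeR, under the 5.48 fitted for Ifit3.

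Beyond the cluster, the nearest genes did not follow 1 direction. Of 8 annotated neighbours within 250 kb, 3 passed the filter. Fas, a death receptor on the side of Ifit2, rose by 3.70 ± 0.28 on the log2 scale in TubB against mock (edgeR adjusted p = 3.26e-12), and the lysosomal lipase gene Lipa, which lies between Fas and Ifit2, by 0.18 ± 0.08 (edgeR adjusted p = 0.0459). Pank1, a pantothenate kinase on the side of Ifit1, changed by -1.36 ± 0.27 (edgeR adjusted p = 0.000113). Of the 5 neighbours that did not pass, 3 had 0 counts in each library, and Ch25h, an interferon-inducible cholesterol hydroxylase, had 23 counts in all and 0 in mock and LPS_IFNg.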

How the data were processed

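The authors deposited whole-number counts per gene and a table of regularised log2 (rlog) values. Per the submitters' processing notes and the file headers, STAR 2.7.0 aligned the read pairs and featureCounts 2.0.1 counted them over RefSeq exons of GRCm38.p6, with no strand option, after a non-directional library kit. The read length is not given in the sources used here. Samples were grouped by title. The members, lists, rule for named genes and tests were chosen with earlier results of these data known. All 8 libraries entered 1 fit in edgeR 4.0.16 (R 4.3.3) with a term for group, TMM factors, filterByExpr (minimum count 10, minimum total 15) and robust quasi-likelihood tests, leaving 4 residual degrees of freedom. Of all genes 11081 were kept, and a gene was called at a Benjamini-Hochberg adjusted p under 0.05 over these. CPM uses TMM-scaled totals. Levels across genes are per kb of exon, and log2 CPM for likeness has a prior count of 2. Count ratios have exact and shares Wilson 95% intervals. Named genes were all members, up to 4 called genes a list with the largest change and a mean of at least 3 log2 CPM, 5 genes a member by likeness, and neighbours within 250 kb that passed the filter. Promoter windows are RefSeq's for GRCm38.p6, and transcripts GENCODE M21's. The fits were tested on simulated counts. Alternatives were RLE factors, 2 other filters, the compared groups alone, a replicate block, DESeq2 1.42.0, limma-voom (limma 3.58.1), limma on the deposited log2 values, and leaving out each library. Every pair of libraries differed by more than sampling noise: the mean chi-square per gene, 1 for noise alone, was at least 1.93. The values of 1 gene that is counted in the pathway lists are not reported here.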

Additional observations from a re-analysis of the deposited data

How the results depend on the processing

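Over 16 alternatives a comparison (15 for the interaction), the number of members called stayed 0 in LPS_IFNg against mock, LPS_IFNg_TubB against TubB and the interaction. It was 4 or 5 in TubB against mock, 3 or 4 in LPS_IFNg_TubB against LPS_IFNg, and 4 or 5 in LPS_IFNg_TubB against mock, where leaving out 1 library gave 4 to 5, 3 to 4 and 4. The fifth member was Ifit1bl2, which entered the test with no filter or with 1 CPM in 2 libraries (edgeR adjusted p = 0.0055 and 0.0033 in TubB against mock), and when LPS_IFNg replicate 1, LPS_IFNg replicate 2 or LPS_IFNg_TubB replicate 1 was left out (0.00489, 0.00471 and 0.00481). In LPS_IFNg_TubB against LPS_IFNg it was not called in any of these 5 settings (0.0594 to 0.185). With the compared groups alone in the fit, 4 were called in each. On the deposited rlog values, which shrink low counts, the folds in TubB against mock were smaller by construction (1.84 for Ifit1, 2.63 for Ifit2, 2.13 for Ifit3, 0.60 for Ifit3b) and 4 were called. Of 186 fold changes of members that were not called, 21 had the other sign under an alternative. By CPM without division by length, Ifit2 made up 71.7% of the summed level in a TubB library, as the mean of 2, against 60.6% per kb. With the replicate block, 4 members were called in TubB against mock (3.54, 4.45, 5.52 and 3.17 for Ifit1, Ifit2, Ifit3 and Ifit3b), 4 in LPS_IFNg_TubB against LPS_IFNg and 4 in LPS_IFNg_TubB against mock, and no member's call changed. The labels do not say that a replicate number marks a shared culture or day, so the block is an alternative only. Replicate differences correlated between groups at -0.05 to 0.15, highest for TubB with LPS_IFNg_TubB. Between mock and LPS_IFNg and between TubB and LPS_IFNg_TubB, same-numbered libraries had a mean chi-square per gene of 1.93 to 2.34, below that of replicates of 1 group (2.60 to 4.87), a hint of pairing from the data and not from the design. Depth limits Ifit3, Ifit3b, Ifit1bl1 and Ifit1bl2 in mock and LPS_IFNg, where each had at most 5 counts a library.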
